A study of Gallus gallus with 10 samples.

Results

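Levels of 9 genes of hedgehog reception and response were followed in chick cranial neural folds: the co-receptor genes CDON, BOC and GAS1, the receptor gene PTCH1, the signal transducer gene SMO, the transcription factor genes GLI2 and GLI3, and the Dispatched genes DISP1 and DISP3. They were chosen with earlier results of these data known, and their rows were found by symbol in a deposited table of 19168 genes. Each of the 9 had 1 row in that table, and all 9 passed a filter of a mean of at least 1 FPKM (fragments per kilobase of transcript, relative to library size), as did 11935 genes in all. The study asked which neural crest genes depend on NSD3, a SET domain histone methyltransferase, and used poly(A) RNA-seq. Embryos at Hamburger-Hamilton stage 4 to 5 were electroporated on both sides, either with a control morpholino (labelled mmMO) or with an NSD3 morpholino, an antisense oligomer against NSD3 RNA; the labels do not say whether it blocks translation or splicing. Both morpholinos were given at 0.5 mM, and every embryo also received 300 ng/µL of the carrier plasmid pCS2+myc. Folds were cut at 5 to 7 somites, and each group had 5 libraries, each made from a pool of 12 embryos, out of 60 per condition. The strain of the embryos is not given in the sources used here.

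Hedgehog proteins are secreted, lipid-bearing signals that leave the producing cell with the help of DISP1. On the receiving cell they bind PTCH1 together with the co-receptors CDON, BOC and GAS1, which releases SMO from repression at the primary cilium. SMO then shifts the balance of the GLI factors: GLI3 serves mainly as a repressor when the signal is absent and GLI2 mainly as an activator when it is present, while PTCH1 and GLI1 are themselves target genes. In the head, hedgehog from notochord and floor plate patterns the ventral neural tube and supports cranial neural crest, and the dorsal folds lie away from that source.

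Relative depth was spread more widely among the NSD3 morpholino pools than among the control pools. Read totals are unknown, but the step sizes of low FPKM values placed the relative depth of the pools between 0.887 and 1.29. Control pools lay at 0.977 to 1.06, NSD3 morpholino pools 2 to 5 below them all at 0.887 to 0.972, and NSD3 morpholino pool 1 above them at 1.29. An FPKM above 0 was held by 16238 to 16638 genes per pool. The part of depth in the levels was not tested. NSD3 itself averaged 22.9 ± 2.29 FPKM in control pools and 17.9 ± 1.36 FPKM in pools given its morpholino (SD, n = 5 each). Every NSD3 morpholino pool lay below every control pool (exact permutation p = 0.007937, two-sided, the smallest this design allows). The limma adjusted p of NSD3, 0.055, nevertheless missed the threshold. The authors' deposited table of differential genes, from the same pools, lists NSD3 at a log2 fold change of -0.35 (adjusted p 0.00439). Genes of the labelled tissue were present, with SOX2 of neural plate at 88.8 ± 15.3 FPKM and FOXD3 of neural crest at 407 ± 183 FPKM in controls (SD, n = 5). The summed level of 8 neural crest genes ran from 916 to 1740 FPKM in control pools and from 659 to 1010 FPKM in NSD3 morpholino pools. FOXD3, MSX1 and SNAI2 made up most of that sum, at 407, 340 and 268 FPKM on average in controls. They were not called at a limma adjusted p under 0.05 (0.133, 0.305 and 0.322). Of the 8 crest genes 2 were called lower, SOX9 (limma adjusted p 0.0333) and TFAP2B (0.0141), 0 higher and 6 not. Of 8 neural plate and tube genes 1 was called lower, NCAM1 (0.0049), 0 higher and 7 not. Over all genes tested 1.02% were called lower. In control pool 5, which had the highest sum, FOXD3 stood at 731 FPKM and MSX1 at 472 FPKM. The summed level of 10 head mesenchyme and paraxial mesoderm genes ran from 18.0 to 24.6 and from 26.2 to 39.6 FPKM. Markers of blood and endothelium (7 of 10 in the table) summed to between 9.70 and 19.3 FPKM and those of endoderm (6 of 6) to between 2.21 and 4.21 FPKM over all 10 pools. In pools of whole folds, fewer cells of a type and less RNA per cell cannot be told apart.

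In control folds SMO was the most abundant of the 9 transcripts and PTCH1 the least. SMO averaged 62.9 ± 7.90 FPKM (SD, n = 5) and ranked at the 90.2 percentile of the genes tested, by mean over all pools. CDON followed at 46.7 ± 4.47 FPKM, GLI3 at 24.2 ± 1.66, GAS1 at 20.3 ± 3.25, GLI2 at 19.7 ± 1.45, BOC at 12.8 ± 2.46, DISP3 at 11.6 ± 1.42 and DISP1 at 10.2 ± 2.49 FPKM. PTCH1 lay at 3.27 ± 0.616 FPKM, the 20.7 percentile, and the mean within-pool ratio of SMO to PTCH1 was 19.4 ± 1.36 (SD, n = 5). FPKM are per length, but the annotation release and the use of strand are not given, so levels of different genes compare only roughly. The control ranges of GLI3, GAS1 and GLI2 overlapped as neighbours in this order, as did those of BOC, DISP3 and DISP1. SMO over CDON, CDON over GLI3, GLI2 over BOC and DISP1 over PTCH1 held without overlap in all 5 control pools.

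**Figure D1:**
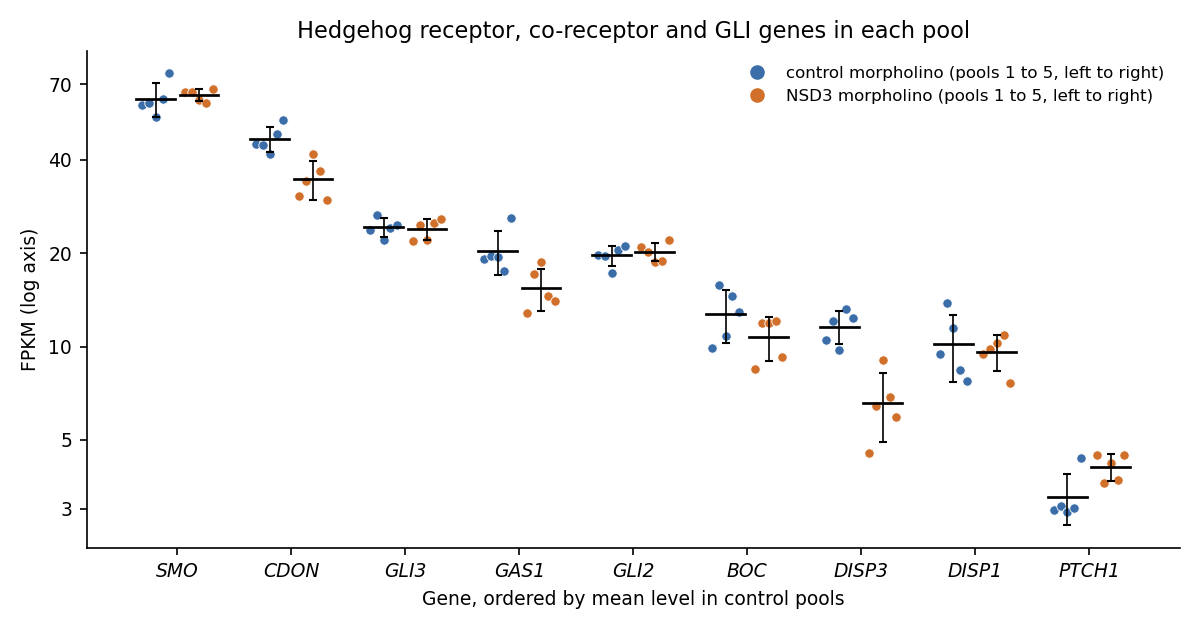
FPKM of the 9 genes in each pool on a log axis, with control morpholino pools in blue and NSD3 morpholino pools in orange, pools 1 to 5 from left to right within each cluster; black lines and bars are means and SD (n = 5). CDON and DISP3 have all orange points below all blue points, and SMO, GLI2 and GLI3 have interleaved points.

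With the NSD3 morpholino, 2 of the 9 genes fell, CDON and DISP3, 0 rose and 7 did not pass the test. CDON went from 46.7 ± 4.47 to 34.6 ± 4.96 FPKM and DISP3 from 11.6 ± 1.42 to 6.56 ± 1.64 FPKM (SD, n = 5 each). By limma over all genes tested, 1.02% were called lower and 1.50% higher at an adjusted p under 0.05, which is 122 and 179 of 11935 and makes 2.52% in either direction. With FPKM rescaled to the same total in each pool those counts were 173 and 125, so that the share of rises among calls went from 59.5% to 41.9%. The median log2 fold change was -0.06 over the 9 genes, 6 of them negative, and 0.00 over all genes tested. Groups did not overlap for CDON and DISP3, both in the lower direction, in which 2.36% of all tested genes had no overlap. Of the 9 genes 4 had an unadjusted p under 0.05 (CDON, DISP3, GAS1 and PTCH1), against 18.1% of the genes tested. Because the 9 genes were chosen with earlier results known, their counts beside these shares are not a neutral comparison. The calls were sensitive to single pools, as given below for each gene.

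**Figure D2:**
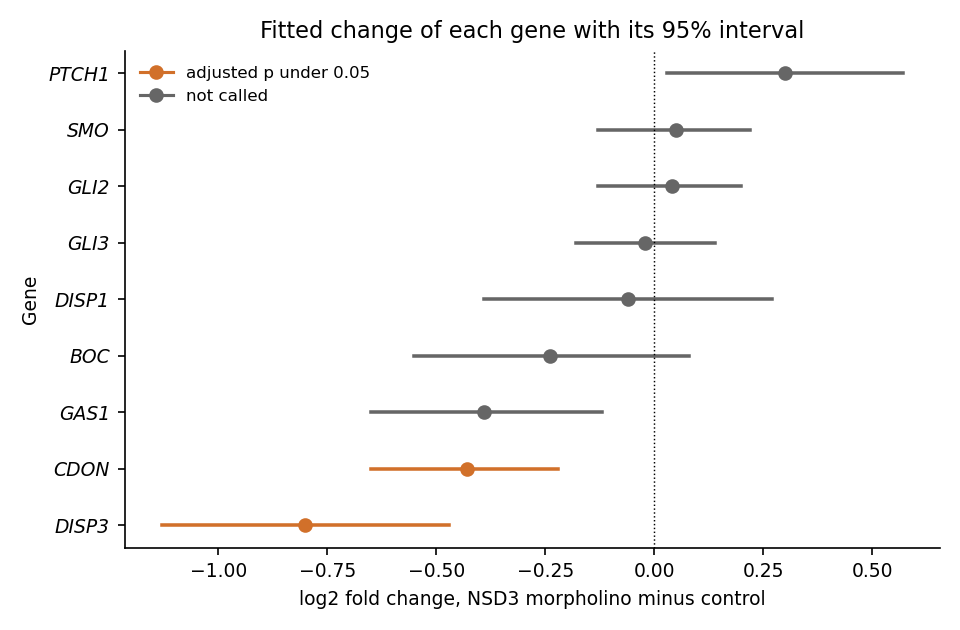
Fitted log2 fold change of each gene (NSD3 morpholino minus control, limma on log2(FPKM + 0.5), n = 5 pools per group), with points as estimates and lines as 95% confidence intervals. DISP3 (-0.80) and CDON (-0.43) are orange because their adjusted p lay under 0.05; the intervals of GAS1 and PTCH1 exclude 0 without an adjusted p under the threshold.

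The 3 co-receptor genes all had lower means, and CDON passed the test. CDON encodes an immunoglobulin and fibronectin repeat protein that binds hedgehog at the cell surface. Its control values were 45.1, 44.7, 41.9, 48.4 and 53.6 FPKM in pools 1 to 5, and its NSD3 morpholino values 30.6, 34.1, 41.8, 36.9 and 29.6 FPKM. Every NSD3 morpholino value was under every control value, but NSD3 morpholino pool 3 and control pool 3 nearly met. The fitted log2 fold change was -0.43 (SE 0.10, 95% confidence interval -0.65 to -0.22) with a limma adjusted p of 0.0438. The call held without control pool 3 (adjusted p 0.0365) or NSD3 morpholino pool 3 (0.0269). It was lost without any 1 of the other 8 pools, control pools 1, 2, 4 and 5 and NSD3 morpholino pools 1, 2, 4 and 5, with adjusted p between 0.0725 and 0.109 and log2 fold changes between -0.46 and -0.38. Without control pools 4 and 5 together it was -0.35 with an adjusted p of 0.0997. With all 10 pools the CDON call was also lost without the filter on low values (adjusted p 0.0635), without the mean-variance trend (0.0710) and with the replicate number as a block (0.104), at a log2 fold change of -0.43 in each.

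GAS1, a lipid-anchored surface protein that binds hedgehog, stood at 19.1, 19.6, 19.4, 17.5 and 25.9 FPKM in control pools 1 to 5 and at 12.8, 17.1, 18.7, 14.5 and 14.0 FPKM in NSD3 morpholino pools 1 to 5. All 5 NSD3 morpholino pools were below the control mean, and 4 of the 5 were below the lowest control pool. GAS1 had a fitted log2 fold change of -0.39 (SE 0.123, 95% confidence interval -0.65 to -0.12) with an unadjusted p of 0.00859 and a limma adjusted p of 0.125, so the gene was not called. Control pool 5 stood apart from the other 4 controls, and without it the log2 fold change was -0.30 (adjusted p 0.183).

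BOC, the closest relative of CDON, was the most variable of the 3 in relative terms. Its control values were 9.86, 15.8, 10.8, 14.5 and 12.9 FPKM and its NSD3 morpholino values 8.47, 11.9, 11.9, 12.1 and 9.25 FPKM, in the order of the pools. The groups overlapped, with all 5 NSD3 morpholino pools below the control mean. For BOC the log2 fold change was -0.24 with a 95% confidence interval from -0.55 to 0.08 and a limma adjusted p of 0.426, an interval that includes 0 and also the change fitted for CDON.

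Summed over the 3 genes, co-receptor transcripts came to 79.8 ± 7.89 FPKM in control pools and 60.7 ± 8.53 FPKM in NSD3 morpholino pools (SD, n = 5 each). NSD3 morpholino pool 3, at 72.5 FPKM, overlapped control pool 3, at 72.2 FPKM. The make-up of the sum moved little: CDON supplied 58.6% ± 2.01 in controls and 57.0% ± 1.95 with the NSD3 morpholino, GAS1 25.4% ± 2.44 and 25.4% ± 1.64, and BOC 16.0% ± 2.76 and 17.6% ± 1.29. Relative to SMO in the same pool, the sum was 1.22 to 1.32 in control pools and 0.780 to 1.16 in NSD3 morpholino pools. These sums and ratios were chosen after the values were seen and are given without a test. NSD3 morpholino pools 1 and 5 had the lowest sums, 52.0 and 52.8 FPKM, and neural crest marker sums of 817 and 659 FPKM. NSD3 morpholino pool 3 had the highest co-receptor sum of its group and a neural crest sum of 767 FPKM, while control pool 5 had the highest of both, 92.4 and 1740 FPKM. The part of neural crest content in the co-receptor levels was not tested.

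**Figure D3:**
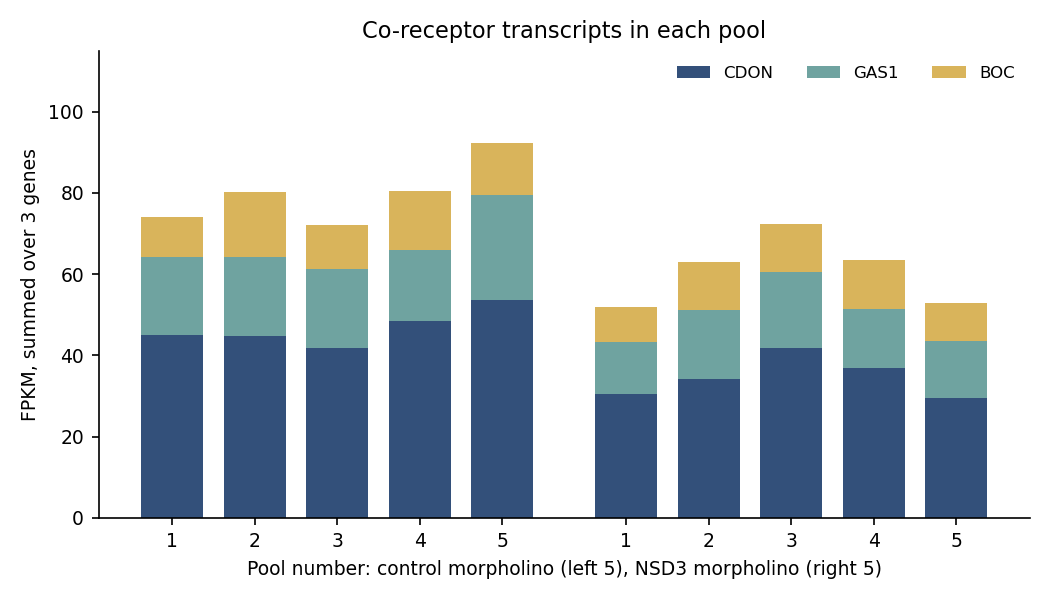
FPKM of CDON, GAS1 and BOC stacked for each pool, with the 5 control morpholino pools on the left and the 5 NSD3 morpholino pools on the right; bar height is the sum. Control pools reach 72.2 to 92.4 FPKM and NSD3 morpholino pools 52.0 to 72.5 FPKM, with CDON the largest part in every pool.

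PTCH1, the hedgehog receptor and a target gene of the pathway, had a higher mean with the NSD3 morpholino but did not pass the test. Control pools 1 to 5 held 2.98, 3.05, 2.93, 3.02 and 4.37 FPKM, and NSD3 morpholino pools 1 to 5 held 4.48, 3.62, 4.22, 3.70 and 4.48 FPKM. Control pools 1 to 4 were close together and lower than every NSD3 morpholino pool. Control pool 5 was not, so the groups overlapped, with 2 of the 5 NSD3 morpholino pools above it. Its fitted log2 fold change was 0.30 (SE 0.124, 95% confidence interval 0.03 to 0.57) with an unadjusted p of 0.0344 and a limma adjusted p of 0.235. Without control pool 5 it was 0.39 with an adjusted p of 0.0817, and no alternative that tested it called the gene.

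SMO, the seven-pass membrane protein that passes the signal on, was nearly level. It stood at 60.1, 60.8, 54.8, 62.9 and 76.0 FPKM in control pools and at 66.0, 66.2, 62.4, 60.8 and 67.7 FPKM in NSD3 morpholino pools. The NSD3 morpholino pools all fell inside the control range. SMO had a log2 fold change of 0.05 with a 95% confidence interval from -0.13 to 0.22 (limma adjusted p 0.816), and it was 0.00 with FPKM rescaled to the same total. The within-pool ratio of SMO to PTCH1 was 19.4 ± 1.36 in controls and 15.9 ± 1.51 with the NSD3 morpholino (SD, n = 5), with overlapping ranges.

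Levels of the GLI genes hardly differed between the groups. GLI2 ran from 17.3 to 21.1 FPKM in control pools and from 18.8 to 22.0 FPKM in NSD3 morpholino pools, and GLI3 from 22.0 to 26.6 and from 21.9 to 25.8 FPKM. The ranges of the groups overlapped for both genes. Fitted log2 fold changes were 0.04 for GLI2, with a 95% confidence interval from -0.13 to 0.20 and a limma adjusted p of 0.852, and -0.02 for GLI3, with an interval from -0.18 to 0.14 and an adjusted p of 0.929. With FPKM rescaled to the same total they were -0.01 and -0.06. These intervals are the narrowest of the 9 genes. The within-pool ratio of GLI2 to GLI3 was 0.812 ± 0.0514 in controls and 0.844 ± 0.0730 with the NSD3 morpholino (SD, n = 5). RNA levels do not show how much GLI2 or GLI3 protein is processed to its repressor or activator form.

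DISP3 had the largest fitted change of the 9 genes. It encodes a relative of Dispatched and Patched with a sterol-sensing domain, also named PTCHD2, and its part in hedgehog signalling is less settled than that of DISP1. The control values were 10.5, 12.1, 9.78, 13.2 and 12.4 FPKM and the NSD3 morpholino values 4.54, 6.41, 9.03, 6.88 and 5.91 FPKM. No NSD3 morpholino value reached the lowest control, with NSD3 morpholino pool 3 closest to the controls, as it was for CDON and GAS1. The ratio of the NSD3 morpholino mean to the control mean was 0.565. DISP3 had a fitted log2 fold change of -0.80 (SE 0.152, 95% confidence interval -1.13 to -0.47) with a limma adjusted p of 0.0192. The call was lost without NSD3 morpholino pool 2 (-0.80, adjusted p 0.0576) or NSD3 morpholino pool 5 (-0.77, adjusted p 0.0539), and without control pools 4 and 5 together (-0.71, adjusted p 0.0574). The call held without any 1 of the other pools, but often narrowly. Its adjusted p was 0.0499 without control pool 4 (-0.75), 0.0483 without NSD3 morpholino pool 4 (-0.83) and 0.0474 without control pool 2 (-0.78). The lowest was 0.00727, without NSD3 morpholino pool 3 (-0.92).

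DISP1, which releases hedgehog from producing cells, was spread widely among the controls. Its control values were 9.49, 13.8, 11.5, 8.40 and 7.72 FPKM and its NSD3 morpholino values 9.43, 9.83, 10.3, 10.9 and 7.60 FPKM. Control pools 4 and 5 were the lowest of their group and the 2 groups overlapped. The log2 fold change was -0.06 with a 95% confidence interval from -0.39 to 0.27 (limma adjusted p 0.881), a value that moved in both directions with single pools. It was 0.05 without control pool 2 and 0.02 without NSD3 morpholino pool 5, but -0.12 without control pool 4, -0.15 without control pool 5 and -0.25 (adjusted p 0.334) without control pools 4 and 5 together. The within-pool ratio of DISP3 to DISP1 was 1.20 ± 0.367 in controls and 0.684 ± 0.150 with the NSD3 morpholino (SD, n = 5), between 0.850 and 1.60 and between 0.481 and 0.875.

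CDON and DISP3 are also the members that the authors' deposited table of 674 differential genes lists. Those 674 are 3.52% of the genes with deposited FPKM. That base includes genes below the filter of 1 FPKM, which all 9 members passed, so the share is not a like comparison for them. The authors' values come from the same pools, so they are not an independent test of the calls made here. In the authors' deposited table DISP3 has -0.83 as its log2 fold change (adjusted p 3.21e-05) and CDON has -0.43 (adjusted p 0.00321). The authors' deposited table gives mean counts of 419 for DISP3 and 2501 for CDON. The coefficient of variation between pools was 12.3% in controls and 25.0% with the NSD3 morpholino for DISP3, and 9.57% and 14.3% for CDON.

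Genes with levels most like those of CDON and DISP3 over the 10 pools were taken by the smallest root mean square difference of log2 levels, each centred on its own mean. For CDON, which itself varied by 0.265 about its mean on that scale, these were IFT140, an intraflagellar transport gene of the cilium, at 0.104, ACSS3, an acyl-CoA synthetase gene, at 0.108, and IGFBP7, a secreted binding protein gene, at 0.11. IFT140 had means of 8.64 ± 1.09 and 6.57 ± 0.657 FPKM in control and NSD3 morpholino pools (SD, n = 5), ACSS3 3.27 ± 0.411 and 2.46 ± 0.158 FPKM, and IGFBP7 1.21 ± 0.209 and 0.846 ± 0.148 FPKM. For DISP3, which varied by 0.466, they were FAM110D at 0.155, POU4F3, a transcription factor gene of sensory cells, at 0.156, and BRINP2, a neural gene, at 0.179. FAM110D had means of 11.5 ± 2.06 and 6.94 ± 1.64 FPKM, POU4F3 37.7 ± 5.71 and 23.3 ± 4.63 FPKM, and BRINP2 44.6 ± 5.47 and 30.0 ± 4.74 FPKM. The search covered 10327 genes with a symbol. The group difference counts as part of the likeness, so lower means with the NSD3 morpholino follow from the choice of these 6 genes, and they are given without a test.

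The rest of the pathway was compared as lists of other genes. Of 62 genes listed, 54 were in the table and 41 passed the filter on low values. Limma called 0 of the 41 higher and 0 lower, beside 2.52% called in either direction over all genes tested, a share so low that few or no calls would be found in lists of this size at the rate of all genes. An unadjusted p under 0.05 was held by 2 of the 41 (GPC4 and ULK3), beside 18.1% of all genes tested. The median log2 fold change of the 41 was 0.00. Without control pools 4 and 5 together, 1 of these genes was called, DHCR7, an enzyme gene of the last step of cholesterol synthesis, at a log2 fold change of -0.44 (limma adjusted p 0.0196). With all pools DHCR7 stood at 26.1 ± 5.82 FPKM in control pools and 22.2 ± 1.98 FPKM in NSD3 morpholino pools (SD, n = 5, limma adjusted p 0.497).

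Ligand transcripts were scarce in these folds. SHH, the ligand made by notochord and floor plate, had a value above 0 in 2 control pools and 1 NSD3 morpholino pool and reached 0.111 FPKM at most, and DHH reached 0.234 FPKM. HHAT, the acyltransferase that adds palmitate to hedgehog, and SCUBE1 also lay below the filter. SCUBE3 and SCUBE2, secreted proteins that help hedgehog leave the cell, stood at 7.47 ± 0.827 and 3.15 ± 0.875 FPKM in control pools and at 6.43 ± 0.940 and 2.35 ± 0.685 FPKM in NSD3 morpholino pools, with limma adjusted p of 0.376 and 0.381. Floor plate and notochord markers (9 of 10 in the table) summed to 27.6 to 44.1 FPKM in control pools and 25.8 to 33.8 FPKM in NSD3 morpholino pools, of which NOTO alone made up 24.1 and 19.1 FPKM on average. FOXA2, which marks floor plate, stayed at or under 1.52 FPKM in every pool.

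Among other hedgehog-binding proteins, GPC4, a cell-surface heparan sulfate proteoglycan gene, was the most abundant. Its pools held 76.2 to 89.9 FPKM in control pools and 92.5 to 101 FPKM in NSD3 morpholino pools, and did not overlap, as for 3.68% of all tested genes in that direction. GPC4 was not called, at a log2 fold change of 0.19 (SE 0.0615, limma adjusted p 0.122). LRP2, an endocytic receptor that binds hedgehog in the neural plate of the mouse, averaged 11.4 ± 0.812 and 9.74 ± 1.58 FPKM (SD, n = 5, limma adjusted p 0.287). GPC3, a glypican that competes for hedgehog in the mouse, averaged 2.97 ± 0.473 and 3.19 ± 0.459 FPKM (limma adjusted p 0.761), and HHIP, a decoy receptor, lay below the filter.

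The 20 tested genes of signal transduction and the cilium had a median log2 fold change of 0.02, and 0 were called, beside 2.52% of all genes tested. ULK3, a kinase that acts on GLI proteins, averaged 10.5 ± 1.10 FPKM in control pools and 12.6 ± 1.59 FPKM in NSD3 morpholino pools (SD, n = 5), with a log2 fold change of 0.26, an unadjusted p of 0.0306 and a limma adjusted p of 0.221. EVC, a ciliary membrane protein that works with SMO, held 1.65 to 1.99 FPKM in control pools and 2.11 to 2.42 FPKM in NSD3 morpholino pools. Its groups did not overlap, as for 3.68% of all tested genes in that direction, and its log2 fold change of 0.22 had a limma adjusted p of 0.294. GPR161, a ciliary receptor that restrains the pathway, averaged 21.9 ± 1.56 and 23.8 ± 0.688 FPKM (limma adjusted p 0.374), and MGRN1, a ubiquitin ligase gene, 3.90 ± 0.889 and 3.32 ± 0.350 FPKM (limma adjusted p 0.560). SUFU, which holds GLI proteins in check, averaged 30.0 ± 5.12 and 31.7 ± 2.04 FPKM (limma adjusted p 0.706).

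Sterol-sensing domain relatives of PTCH1 and the Dispatched genes were compared because DISP3 belongs to that family. Of 5 tested genes 0 were called, beside 2.52% of all genes tested. PTCHD1, a Patched-domain gene, averaged 6.93 ± 0.477 FPKM in control pools and 6.78 ± 0.602 FPKM in NSD3 morpholino pools (log2 fold change -0.03, limma adjusted p 0.895). SCAP, the sterol sensor of SREBP processing, averaged 16.2 ± 0.625 and 15.9 ± 0.960 FPKM (limma adjusted p 0.834). The 95% confidence interval of PTCHD1 ran from -0.22 to 0.16 and that of SCAP from -0.18 to 0.11. DHCR7, also in this list, had a wider interval, from -0.51 to 0.11, around a log2 fold change of -0.20. Its values were 30.3, 30.5, 30.1, 19.8 and 19.6 FPKM in control pools 1 to 5 and 19.4 to 24.6 FPKM in NSD3 morpholino pools.

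**Figure D4:**
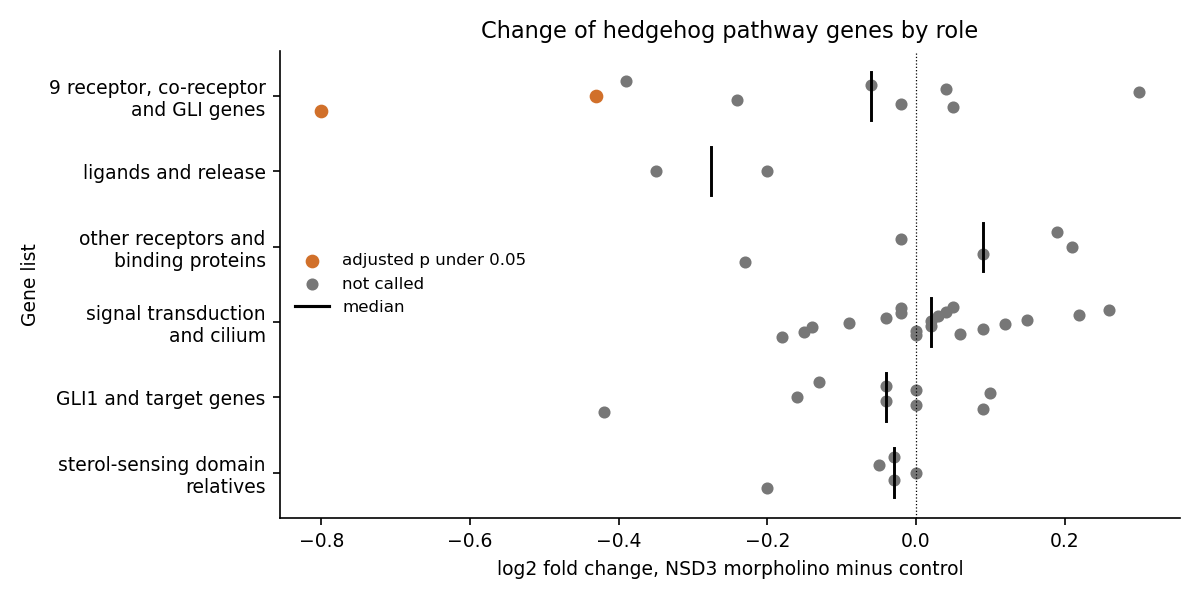
Fitted log2 fold change (NSD3 morpholino minus control) of each tested gene by role in the pathway, with the 9 receptor, co-receptor and GLI genes in the top row and the 5 lists of other pathway genes below; black lines are medians and vertical scatter only separates points. Orange marks an adjusted p under 0.05, held by DISP3 and CDON.

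Several target genes of the pathway were spread widely among the control pools. Of the 15 genes of the GLI1 and target list in the table, 6 lay below the filter and were not tested. Of the 9 tested 0 were called, beside 2.52% of all genes tested, and their median log2 fold change was -0.04. GLI1, the target gene most often used to read pathway activity, stood at 9.02, 6.91, 6.74, 11.0 and 14.9 FPKM in control pools 1 to 5 and at 8.44 to 12.2 FPKM in NSD3 morpholino pools (log2 fold change 0.10, 95% confidence interval -0.32 to 0.51, limma adjusted p 0.840). OLIG2, a ventral neural tube transcription factor gene, stood at 9.92, 15.2, 7.93, 35.7 and 45.7 FPKM in control pools 1 to 5 and between 9.08 and 18.7 FPKM in NSD3 morpholino pools (log2 fold change -0.42, 95% confidence interval -1.36 to 0.53, limma adjusted p 0.668). In both genes control pools 4 and 5 were above the other 3 controls, and for OLIG2 they were above all other pools.

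The same control pools were the highest of their group for NKX6-2 but not as a pair for PTCH1. NKX6-2, a homeobox gene of neural progenitors, held 9.12, 11.5, 8.19, 13.9 and 17.4 FPKM in control pools 1 to 5. NKX6-2 averaged 10.6 ± 1.20 FPKM in NSD3 morpholino pools (SD, n = 5, limma adjusted p 0.758). PTCH1 was raised in control pool 5 alone. SMO averaged 58.6 FPKM over control pools 1 to 3 and 69.5 FPKM over control pools 4 and 5, CDON 43.9 and 51.0 FPKM, and DISP3 10.8 and 12.8 FPKM, whereas DISP1 averaged 11.6 and 8.06 FPKM and GLI3 24.2 and 24.4 FPKM. SHH was listed at 0 in control pools 4 and 5, while FOXA2 stood at 1.15 and 1.46 FPKM in them and at most at 0.406 FPKM in control pools 1 to 3. The split of the controls was seen in the data and has no label, so no test was made. CCND1, a cell cycle gene, averaged 31.1 ± 1.53 FPKM in control pools and 33.1 ± 1.03 FPKM in NSD3 morpholino pools, and FOXD1, a forebrain and mesenchyme factor gene, 1.10 ± 0.385 and 0.912 ± 0.223 FPKM (SD, n = 5, limma adjusted p 0.463 and 0.706).

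**Figure D5:**
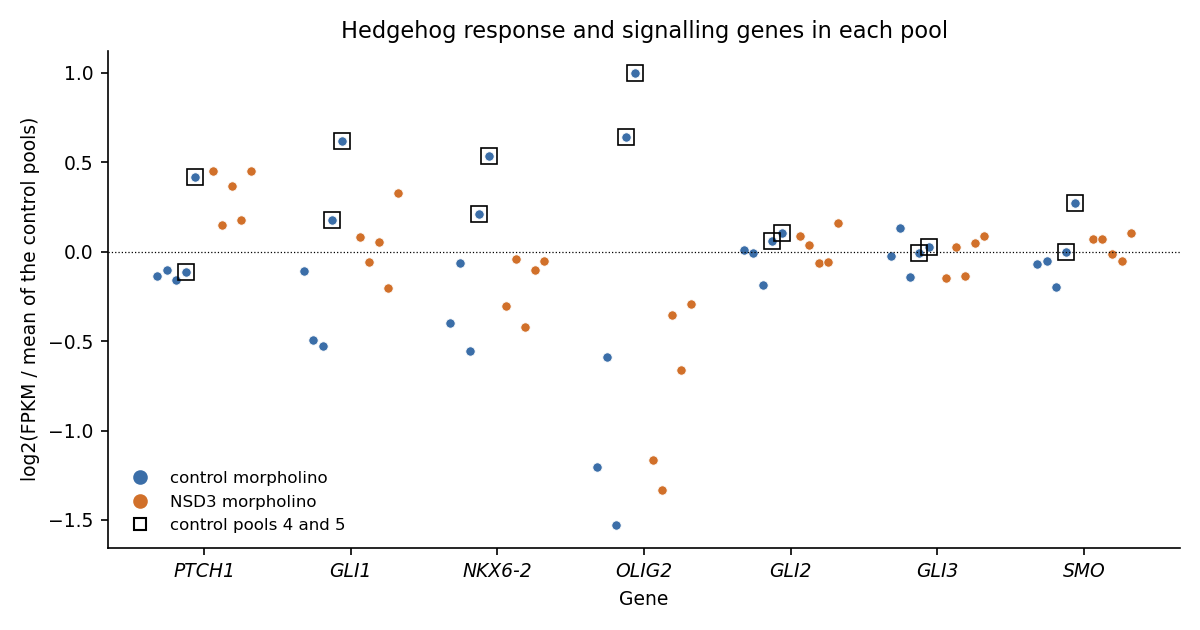
Level of 7 hedgehog genes in each pool as log2 of FPKM over the control mean, control morpholino in blue and NSD3 morpholino in orange, pools 1 to 5 from left to right; squares mark control pools 4 and 5. The squares sit at the top of the control points for GLI1, NKX6-2, OLIG2, SMO and GLI2, while GLI3 shows little spread in any pool.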

How the data were processed

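The authors deposited FPKM for 19168 genes in 10 libraries and, for 674 of them their own log2 fold change with its adjusted p-value, and a mean count, often fractional, treated here as a signal value of the authors. The tools named, per the submitters' processing notes, are DESeq2 1.28.1, STAR 2.5.3a and Trimmomatic 0.32, and the genome build is GRCg6a (galGal6). No source used here gives the counting tool, the annotation release or the use of strand, so overlapping and antisense genes are uncertain.

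Symbols were the deposited Ensembl symbols, else the UniProt ones. All 9 member symbols were also in a RefSeq table of GRCg7b, whose coordinates were not used. FPKM are not counts, so limma 3.58.1 in R 4.3.3 was fitted to log2(FPKM + 0.5) with a mean-variance trend and 1 group term, over 11935 genes with a mean of at least 1 FPKM. Tests were two-sided, with Benjamini-Hochberg adjustment over all genes tested. Fold changes on this scale are too small for genes near the pseudocount. The fit was tested on simulated data with independent normal noise in each gene and pool. Such data hold no differences that genes of a pool share, so they do not test the calls made here. Tables and figures used Python 3.11.15, pandas 2.3.3, numpy 2.4.6 and matplotlib 3.10.9.

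The members and lists were chosen with earlier results of these data known. Genes named are the 9 members, NSD3, up to 4 genes per pathway list with the smallest adjusted p, and the 3 genes most like each called member. GLI1, SUFU, SHH, DHH, HHAT, SCUBE1, HHIP, NOTO, FOXA2, SOX2, NCAM1, FOXD3, MSX1, SNAI2, SOX9 and TFAP2B were named after their values were seen. A few listed genes count in the totals and are not reported by name here. Alternatives were 21 settings of pseudocount, filter, scaling, trend, weights, rows, replicate block and libraries.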

Additional observations from a re-analysis of the deposited data

Results flagged for a closer look

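In 2 of the 9 genes a control pool stood apart from the other 4 by Dixon's criterion for 5 samples. GAS1 was at 25.9 FPKM in control pool 5, against 17.5 to 19.6 FPKM in the other controls. PTCH1 was at 4.37 FPKM in control pool 5, against 2.93 to 3.05 FPKM. EVC was at 1.65 FPKM in control pool 5, against 1.90 to 1.99 FPKM. These were 3 of 56 groups of pools examined, and chance alone marks about 1 group in 20. Control pool 5 was the odd pool in all 3, and it also had the highest neural crest marker sum of the 10 pools, 1740 FPKM, whose part in these levels was not tested.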

How the results depend on the processing

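Of the 9 members, the 2 calls became 1 without a filter, without a trend or with the replicate block, in each case with DISP3 kept, and 0 without control pools 4 and 5. Leaving out 1 pool gave 0 to 2. CDON had an adjusted p of 0.0635, 0.0710 and 0.104 in those first 3 settings, and DISP3 had 0.0484 with the replicate block. The log2 fold change over 21 alternatives ran from -0.50 to -0.35 for CDON and from -0.92 to -0.69 for DISP3. BOC, GAS1, PTCH1, SMO, GLI2, GLI3 and DISP1 were called in 0 alternatives, and SMO, GLI2, GLI3 and DISP1, all close to 0, changed sign in 2, 2, 3 and 2 of them. Other pathway genes gave 1 call without control pools 4 and 5 and 0 in the other 20. All genes gave 301 calls, 551 with array weights and 159 with the replicate block. Leaving out 1 pool gave 101 to 362, and 187 and 165 without control pools 1 and 4 and 197, 101, 152, 125 and 136 without NSD3 morpholino pools 1 to 5. NSD3 had -0.34 and passed with a filter of 5 FPKM (adjusted p 0.0480), and had -0.39 and passed with equal totals (0.0360). Pools with the same number correlated between -0.128 and 0.340 in their deviations from group means, and 4 of 10 correlated best with their own number. These values do not settle whether the numbers pair the pools. For the changed calls the cause was not tested, and some settings also had fewer pools or a larger number of genes. The ligand genes SHH and DHH lay under the filter, and the part of depth in their low values was not tested.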
